A study of Macaca mulatta with 6 samples.

Results

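The insulin-like growth factor (IGF) axis was described in RNA sequencing of 6 rhesus monkey (Macaca mulatta) induced pluripotent stem cell lines, derived from fibroblasts. Members were the deposited rows whose gene symbol is IGF2, IGF1R, IGF2R, INSR or IGFBP2 to IGFBP7. A row was found for 9 of the 10 named genes, among 30246 rows in all, and all 9 passed the filter on low values. IGF2 is not analysed here. The series compares naive lines with primed lines, and the labels place 2 libraries in each of 3 groups, male naive, female naive and male primed. Naive lines grew in a medium the labels call 6SM, with 15% serum replacement, N2 supplement, 4 ng/ml bFGF, 10 ng/ml human LIF, CHIR99021 (a GSK3 inhibitor, 3 µM), PD0325901 (a MEK inhibitor, 0.5 µM), SB203580 (a p38 inhibitor, 10 µM) and SP600125 (a JNK inhibitor, 10 µM). Primed lines grew in the medium called hESM, with 20% serum replacement and bFGF, and without the other factors as far as the labels list them. Medium and state therefore cannot be told apart. Feeder cells were removed before RNA was extracted, per the labels, which give the developmental stage of all lines as embryo and do not tie lines to animals. No female primed line was analysed, so sex and state are not separated in the female lines.

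IGF1 and IGF2 are secreted growth factors that signal through the receptor tyrosine kinases IGF1R and INSR, and pluripotent cells in culture are commonly supported through this pathway by insulin or IGF in the medium. IGF2R, the mannose 6-phosphate receptor, takes up IGF2 for degradation and has no kinase. The binding proteins IGFBP2 to IGFBP6 hold IGFs outside the cell with high affinity and can block or prolong their action, while IGFBP7 is a related protein that binds IGFs weakly.

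Depth, taken from the deposited error bounds as effective fragments, was 1754857 and 1478692 in the male naive lines and 7607125 to 10013491 in the other 4, so the male naive libraries are the least precise. The pluripotency marker POU5F1 was at 109 to 1160 FPKM (a fragment count divided by transcript length in kilobases and by the depth of the library) and SOX2 at 85.3 to 141 FPKM over the 6 libraries. NANOG was at 28.7 to 95.9 FPKM in naive lines and 0.933 and 2.09 FPKM in primed lines. The 14 fibroblast and feeder markers with a row summed to 190 to 360 FPKM in naive libraries and to 86.6 FPKM in primed 1 and 374 FPKM in primed 2. The 2 primed libraries thus differed in these markers, with COL3A1, a fibrillar collagen, at 0.414 and 28.6 FPKM. The 7 neural markers with a row summed to 200 to 370 FPKM in naive and to 693 and 895 FPKM in primed lines, and 4 of 6 tested were called lower in naive lines. Of 4 tested mesoderm markers 2 were called higher in naive lines. Of 10 tested pluripotency markers 7 were called higher and 0 lower. Over all tested rows 6.72% were called higher and 4.59% lower. TDGF1, a pluripotency marker, was at 11.9 to 111 FPKM in naive and at 0 and 0.818 FPKM in primed lines. The part of these markers in the differences between states was not tested. In bulk RNA, fewer cells of a type and less RNA per cell cannot be told apart.

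Taken over both sexes, naive lines had higher levels of 2 binding protein genes, IGFBP6 and IGFBP3, than primed lines, and no member was called lower. Within males neither gene was called, with differences of 2.77 for IGFBP6 (limma adjusted p = 0.0667) and 0.71 for IGFBP3 (limma adjusted p = 0.357). With limma on log2(FPKM + 1), adjusted over all 13685 tested rows, 2 of 9 members were called higher at an adjusted p under 0.05 and 0 lower, where 6.72% of all tested rows were called higher and 4.59% lower. At an unadjusted p under 0.05 there were 4 of 9 members, the further 2 being IGFBP4 and IGFBP5, where 30.9% of all tested rows were under it. The median difference was 0.33 over the members and 0.035 over all tested rows. Naive and primed lines did not overlap for 3 members that were higher (IGFBP3, IGFBP4 and IGFBP6) and 1 that was lower (IGFBP5), where 18.9% of all tested rows did not overlap on the higher side and 15.9% on the lower side.

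**Figure D1:**
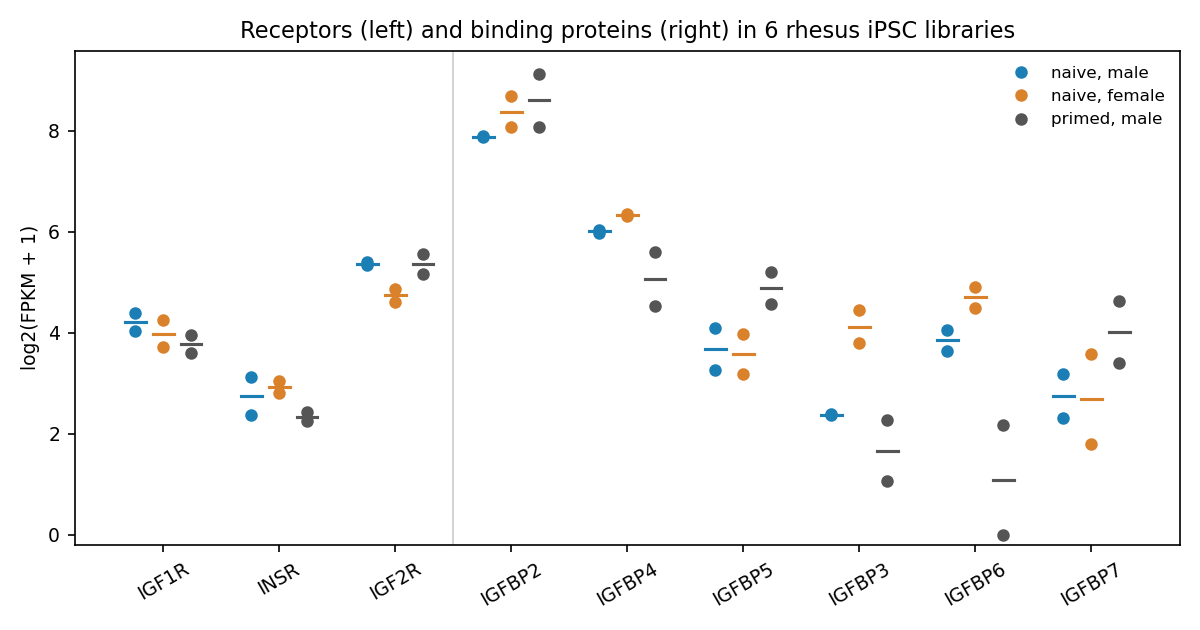
Level of each of the 9 members as log2(FPKM + 1); points are the 2 libraries of a group and bars their mean. Receptor values of naive and primed lines overlap, IGFBP2 is the highest gene in all 6 libraries, and primed lines lie below all naive lines for IGFBP4, IGFBP3 and IGFBP6 and above them for IGFBP5.

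Neither signalling receptor was called in naive against primed lines. IGF1R (ENSMMUG00000012305, chromosome 7, 78653698 to 78966875), the main receptor for IGF1 and IGF2, was at 15.3 and 20.1 FPKM in the male naive lines, at 12.2 and 18.0 in the female naive lines and at 11.1 and 14.4 in the primed lines. These ranges overlapped, and naive lines differed from primed lines by 0.33 on the log2(FPKM + 1) scale (SE 0.22, 95% interval -0.21 to 0.86, limma adjusted p = 0.37). The value of male naive 2 is the least certain, since its deposited bounds ran from 3.07 to 37.0 FPKM.

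INSR (ENSMMUG00000028907, chromosome 19, 6981914 to 7037130), the insulin receptor, was at 4.15 and 7.74 FPKM in the male naive lines, at 6.05 and 7.26 in the female naive lines and at 4.38 and 3.77 in the primed lines. Male naive 1 lay between the primed lines and the other 3 naive lines lay above them. The difference was 0.50 (SE 0.26, 95% interval -0.14 to 1.13, limma adjusted p = 0.252). IGF1R was higher than INSR in every library, by a ratio of 2.01 to 3.69 in naive and of 2.54 and 3.82 in primed lines. In male naive 2 the bounds of IGF1R (3.07 to 37.0 FPKM) and INSR (3.99 to 11.5 FPKM) overlapped, so their order there is uncertain.

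IGF2R (ENSMMUG00000015658, chromosome 4, 156965507 to 157097578), the clearance receptor, was the most abundant of the 3 receptors in every library. It was at 41.1 and 39.5 FPKM in the male naive lines, at 23.6 and 28.1 in the female naive lines and at 46.3 and 35.0 in the primed lines. The female naive lines were the lowest, and the male naive lines lay between the primed lines. Against primed lines, naive lines differed by -0.31 (SE 0.16, 95% interval -0.69 to 0.07, limma adjusted p = 0.236). The ratio of IGF2R to IGF1R was 1.56 to 2.69 in naive and 4.17 and 2.43 in primed lines, which overlapped. In male naive 2 the bounds of IGF2R (35.5 to 43.6 FPKM) overlapped those of IGF1R (3.07 to 37.0 FPKM), so their order there is uncertain.

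IGFBP2 (ENSMMUG00000018940, chromosome 12, 80439650 to 80469062), a binding protein typical of embryonic and fetal tissue, had the highest FPKM of the 9 members in all 6 libraries. It was at 238 and 233 FPKM in the male naive lines, at 269 and 412 in the female naive lines and at 270 and 560 in the primed lines. The primed lines stood farther apart from each other than any naive library did from primed 1. The difference was -0.47 (SE 0.31, 95% interval -1.23 to 0.28, limma adjusted p = 0.356), and it was 0.055 without primed 2, so its sign rests on that library.

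IGFBP4 (ENSMMUG00000009384, chromosome 16, 50561254 to 50575894), a binding protein that restrains IGF action until it is cleaved, was at 62.2 and 65.0 FPKM in the male naive lines, at 78.3 and 80.7 in the female naive lines and at 22.0 and 47.4 in the primed lines. Every naive line lay above both primed lines, and the naive lines lay close together. The mean was 71.6 ± 9.28 FPKM (SD, n = 4 lines) in naive and 34.7 ± 17.9 (SD, n = 2 lines) in primed lines. The difference of 1.11 (SE 0.28, 95% interval 0.43 to 1.79) missed the threshold at a limma adjusted p = 0.0563. Its adjusted p was 0.011 without primed 2, where the difference was 1.65, and the difference was 0.58 without primed 1. It also passed the threshold without rows under 1500 bp (0.0413), a setting that removes IGFBP6.

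IGFBP5 (ENSMMUG00000018942, chromosome 12, 80483232 to 80499412), which binds IGFs and extracellular matrix, went the other way. It was at 16.0 and 8.58 FPKM in the male naive lines, at 8.09 and 14.8 in the female naive lines and at 22.7 and 36.1 in the primed lines. Both primed lines lay above all naive lines. The mean was 11.9 ± 4.13 FPKM (SD, n = 4 lines) in naive and 29.4 ± 9.49 (SD, n = 2 lines) in primed lines, and the difference of -1.26 (SE 0.35, 95% interval -2.11 to -0.41) missed the threshold at a limma adjusted p = 0.0682. IGFBP5 lies 14169 bp from IGFBP2 with no row between them, and over both sexes the neighbour did not share its separation of the groups. Within males both genes were lower in naive lines without overlap, by 0.72 for IGFBP2 and 1.21 for IGFBP5, and neither was called.

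IGFBP3 (ENSMMUG00000013764, chromosome 3, 80573838 to 80582719), the main carrier of IGFs in blood and also made by many cultured cells, was at 4.25 and 4.16 FPKM in the male naive lines, at 12.9 and 20.8 in the female naive lines and at 1.09 and 3.83 in the primed lines. All naive lines lay above both primed lines, but the gap between the male naive lines and primed 2 was small. The higher level was chiefly that of the female lines, 1.74 above the male naive lines on the log2(FPKM + 1) scale. Male naive lines lay 0.71 above primed lines on that scale. Naive lines were higher by 1.58 (SE 0.38, 95% interval 0.67 to 2.50, limma adjusted p = 0.0481), at a mean of 10.5 ± 7.99 FPKM (SD, n = 4 lines) against 2.46 ± 1.94 (SD, n = 2 lines). The call was lost on leaving out any naive library or primed 1 (limma adjusted p of 0.0944 to 0.144) and without both male naive libraries (0.0541), and the difference was 2.46 with those 2 left out and 0.98 without primed 1. It was also lost with an offset of 0.1 (0.0622), no filter (0.0949), upper-quartile scaling (0.0566), median-of-ratios scaling (0.0518), precision weights (0.0627) and both sexes as 1 naive group (0.227).

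IGFBP6 (ENSMMUG00000020338, chromosome 11, 50160583 to 50161951), which prefers IGF2 over IGF1, had the largest difference among the members. It was at 15.7 and 11.5 FPKM in the male naive lines, at 21.5 and 29.1 in the female naive lines and at 3.49 FPKM in primed 2, and it was listed at 0 in primed 1. All 4 naive lines lay above both primed lines, by 3.19 on the log2(FPKM + 1) scale (SE 0.57, 95% interval 1.81 to 4.58, limma adjusted p = 0.0256).

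These values rest on few fragments. IGFBP6 had 5 and 3 effective fragments in the male naive, 32 and 53 in the female naive and 0 and 5 in the primed libraries, since the length behind its FPKM (fragments over FPKM and depth) was 0.181 kb, against 1.54 to 3.49 kb for the other binding proteins. In primed 1 the limit that a count of 0 allows, 3 fragments, would be 1.66 FPKM, below the listed FPKM of every naive line. The deposited bounds were 1.66 to 29.8 FPKM in male naive 1, 0 to 24.8 in male naive 2 and 0.369 to 6.62 in primed 2. These bounds overlapped, so the order of the male naive lines and primed 2 is uncertain. At similar depth, the female naive libraries held 85 effective fragments in all and the primed libraries 5. The call was lost on leaving out any naive library or primed 1 (limma adjusted p of 0.0501 to 0.0903), without both male naive libraries (0.056), with an offset of 0.1 (0.0674), with no filter (0.0548) and with both sexes as 1 naive group (0.0557). The difference was 2.11 without primed 1 and 4.94 with an offset of 0.1.

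IGFBP7 (ENSMMUG00000014011, chromosome 5, 72269381 to 72349820), the weak binder of the family, varied within every group. It was at 8.09 and 3.93 FPKM in the male naive lines, at 10.9 and 2.47 in the female naive lines and at 9.57 and 23.9 in the primed lines. Naive female 1 lay between the primed lines, and the difference of -1.31 (SE 0.59, 95% interval -2.74 to 0.13, limma adjusted p = 0.195) was not called. The ratio between the libraries of a group was 2.06 in the male naive lines, 4.41 in the female naive lines and 2.49 in the primed lines.

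**Figure D2:**
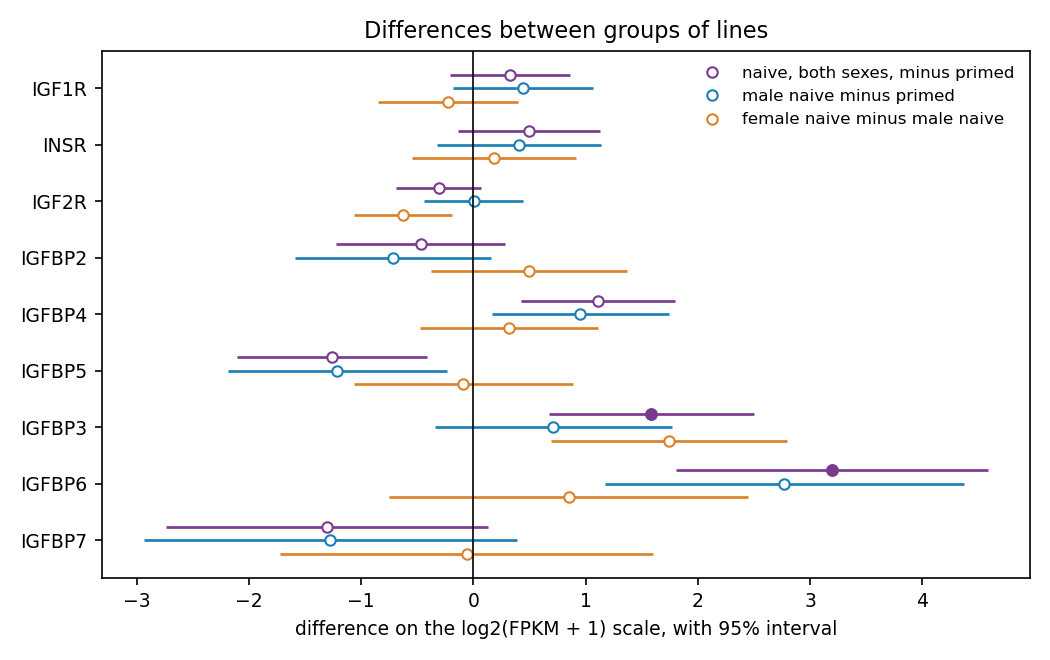
Difference of each member on the log2(FPKM + 1) scale with its 95% interval, for naive lines of both sexes minus primed lines, male naive minus primed lines and female minus male naive lines; filled points have an adjusted p under 0.05. Filled points are IGFBP3 (1.58) and IGFBP6 (3.19) for naive lines of both sexes. IGFBP2, IGFBP5 and IGFBP7 lie on the negative side in both comparisons with primed lines, and IGF2R in that of both sexes.

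Of the summed FPKM of the 6 binding proteins, IGFBP2 held 69.1% and 71.5% in the male naive lines, 67.2% and 73.6% in the female naive lines and 83% in both primed lines. IGFBP4 held 14.4% to 19.9% in naive lines and 6.78% and 7.03% in primed lines. The primed lines agreed closely in these shares although the summed FPKM was 325 in primed 1 and 675 in primed 2, against 327 to 560 in naive lines.

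IGFBP4 exceeded IGFBP5 by a ratio of 3.88 and 7.58 in the male and 9.67 and 5.46 in the female naive lines, and the ratio was 0.971 and 1.31 in primed lines. The 2 genes were thus near parity in primed lines, and IGFBP4 was well above IGFBP5 in all naive lines. A ratio within a library does not depend on the scaling between libraries. In an exact two-sided permutation test of 4 naive against 2 primed lines, p was 0.133 for this ratio and 0.133 for the IGFBP2 share, the smallest value that this design allows (0.266 after adjustment over the 4 ratios tested). These ratios were chosen after the values were seen.

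**Figure D3:**
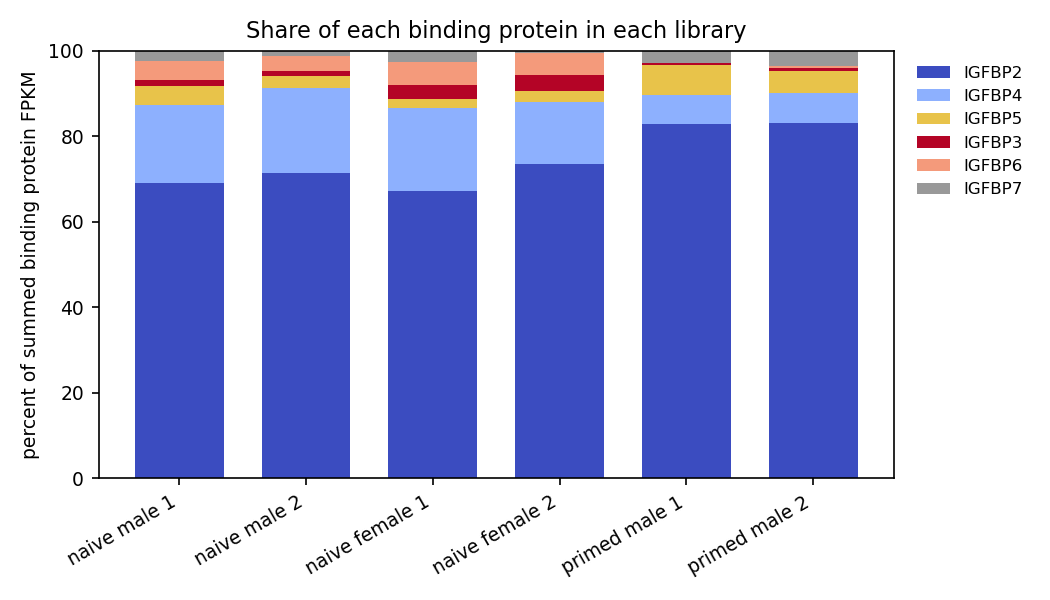
Stacked bars of the percent of summed binding protein FPKM that each of the 6 genes held in each library. The IGFBP2 share is 67.2% to 73.6% in naive and 83% in both primed libraries, and the IGFBP4 share is larger in all naive libraries.

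All 6 binding proteins were higher in primed 2 than in primed 1, by 1.59-fold for IGFBP5 to 3.52-fold for IGFBP3 among those above 0 in both. Of all tested rows 50.9% were higher in primed 2 and 18.1% were over 1.5-fold higher. Of 11 tested fibroblast and feeder markers, 10 were higher in primed 2 and 9 were over 1.5-fold higher. The same held for 6 of 7 endoderm markers, which summed to 3.40 FPKM in primed 1 and 25.0 FPKM in primed 2. Of the other tested markers, 3 of 4 trophoblast, 3 of 10 pluripotency, 1 of 6 neural and 1 of 4 mesoderm markers were over 1.5-fold higher. The part of these cell types in the binding protein levels was not tested. None of the 3 receptors was over 1.5-fold higher in primed 2.

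**Figure D4:**
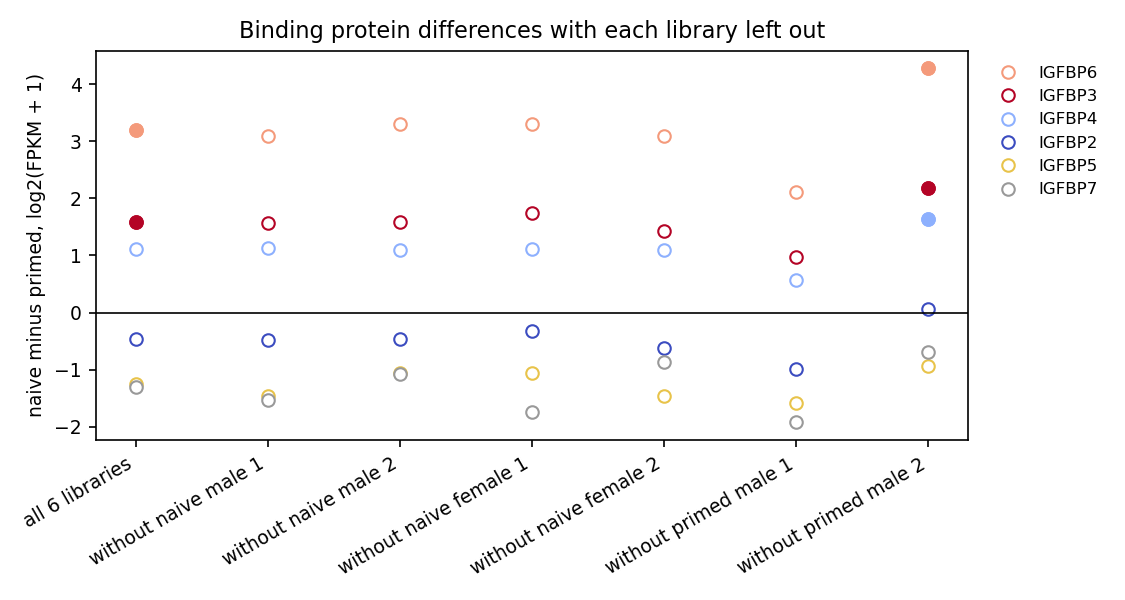
Difference between naive and primed lines for the 6 binding proteins with all 6 libraries and with each library left out; filled points have an adjusted p under 0.05. The differences of IGFBP6 (2.11 to 4.28), IGFBP3 (0.98 to 2.19) and IGFBP4 (0.58 to 1.65) are lowest without primed 1 and highest without primed 2.

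Within males, where sex is held constant, limma called 0 of 9 members, against 5.39% of all tested rows, and 3 of 9 (IGFBP4, IGFBP5 and IGFBP6) had an unadjusted p under 0.05, against 25.7% of all tested rows. This comparison shares its primed and its male naive libraries with the one above. Depth was not held constant, at 1754857 and 1478692 effective fragments in the male naive libraries and 9970137 and 7607125 in the primed libraries. Depth and state therefore cannot be told apart within males, and the part of depth in the differences within males was not tested. IGFBP6 differed by 2.77 (SE 0.66, adjusted p = 0.0667), IGFBP4 by 0.95 (SE 0.33, adjusted p = 0.138) and IGFBP5 by -1.21 (SE 0.40, adjusted p = 0.13). The difference of IGFBP3 was 0.71 (SE 0.43, 95% interval -0.34 to 1.77, adjusted p = 0.357). Without primed 2, IGFBP4 (1.49, adjusted p = 0.0145) and IGFBP6 (3.85, adjusted p = 0.0139) were called.

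IGF2R differed by 0.0025 within males (SE 0.18, 95% interval -0.44 to 0.44). Groups did not overlap for 4 members on the higher side and 3 on the lower side, where 34.8% and 21.6% of all tested rows did so.

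Female naive lines, grown in the same medium as male naive lines, differed from them most in IGFBP3. Depth differed too, at 8294782 and 10013491 effective fragments in the female and 1754857 and 1478692 in the male naive libraries. Depth and sex therefore cannot be told apart between naive lines, and the part of depth in their differences was not tested. Limma called 0 of 9 members in this comparison, against 3.31% of all tested rows, and 2 of 9, IGFBP3 and IGF2R, had an unadjusted p under 0.05, against 21.7% of all tested rows. IGFBP3 was at 16.9 ± 5.59 FPKM (SD, n = 2) in female and 4.21 ± 0.0643 (SD, n = 2) in male naive lines, a difference of 1.74 (SE 0.43, 95% interval 0.69 to 2.80, limma adjusted p = 0.0922). It passed the threshold with precision weights (0.042), in a fit to the naive lines alone (0.0486), without primed 1 (0.0492) and without primed 2 (0.0492). It did not pass in the other 12 alternatives, with limma adjusted p of 0.19 to 0.399 on leaving out 1 naive library and 0.142 with an offset of 0.1.

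IGF2R differed by -0.63 (SE 0.18, 95% interval -1.07 to -0.19, limma adjusted p = 0.123) between female and male naive lines, and both female lines lay below both male lines. The other 7 members differed by -0.23 to 0.85, with limma adjusted p of 0.481 or more. Groups did not overlap for 4 members on the higher side and 1 on the lower side, where 19.4% and 37.6% of all tested rows did so.

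Other genes of the pathway came from a list of 44 ligands, binding protein proteases, adaptors, kinases and FOXO factors, of which 42 had a row and 36 were tested. In naive against primed lines 4 of 36 were called higher and 3 lower, where 6.72% of all tested rows were called higher and 4.59% lower. The median difference was 0.072, with 18 differences positive and 18 negative. Within males 0 of 36 were called, against 5.39% of all tested rows. Of the genes called higher over both sexes, FOXO1 differed within males by 1.14 (limma adjusted p = 0.0608) and PIK3CB by 0.89 (adjusted p = 0.0729). SHC1 differed by 0.78 (adjusted p = 0.0743) and IRS1 by 0.59 (adjusted p = 0.215). Of those called lower, PIK3R3 differed within males by -1.11 (adjusted p = 0.139), PIK3R2 by -0.45 (adjusted p = 0.142) and STC2 by -0.005 (adjusted p = 0.993). The ligand IGF1 was at 0 to 0.338 FPKM, with no more than 2.64 effective fragments in any library. INS, encoding insulin, was listed at 0 in every library, and IGFBP1, which lies 21333 bp from IGFBP3 with no row between, was at 0 to 0.144 FPKM.

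Of the proximal signalling genes, IRS1, the docking protein that links IGF1R and INSR to phosphatidylinositol 3-kinase, was at 14.4 and 16.3 FPKM in the male naive lines, at 21.7 and 36.8 in the female naive lines and at 10.1 and 9.50 in the primed lines. It rose by 1.02 (SE 0.23, limma adjusted p = 0.0407). SHC1, an adaptor toward RAS and ERK, rose by 1.03 (SE 0.17, adjusted p = 0.021), and all naive lines (93.6 to 164 FPKM) lay above the primed lines (50.6 and 66.4).

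Among the subunits of phosphatidylinositol 3-kinase, the catalytic subunit gene PIK3CB rose by 1.21 (SE 0.19, limma adjusted p = 0.0191), from 5.14 and 7.49 FPKM in primed to 12.0 to 21.8 FPKM in naive lines. The regulatory subunit genes PIK3R3 and PIK3R2 fell by 1.60 (SE 0.33, adjusted p = 0.034) and by 0.60 (SE 0.13, adjusted p = 0.0407). Both lower calls were lost with no filter (limma adjusted p of 0.0711 and 0.054), with precision weights (0.0584 and 0.0643) and with the replicate block (0.0678 and 0.0844). PIK3R1 was not called (-0.14, 95% interval -0.73 to 0.44).

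FOXO1, a transcription factor that insulin and IGF signalling holds out of the nucleus, had the smallest p of the list. It was at 2.60 and 3.08 FPKM in the male naive lines, at 6.78 and 5.54 in the female naive lines and at 0.541 and 0.968 in the primed lines. It rose by 1.59 (SE 0.22, limma adjusted p = 0.0148). AKT1 and AKT2, kinases that act upstream of FOXO1, were not called and differed by 0.18 and -0.15. The calls of IRS1 and STC2 were also lost with no filter (limma adjusted p of 0.0727 and 0.0844), with precision weights (0.0726 and 0.0691) and with the replicate block (0.0613 and 0.0698). Each of the 7 calls of the list was lost on leaving out naive male 1, naive male 2, naive female 2 or primed 1, and with both sexes as 1 naive group.

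The protease PAPPA, which cleaves IGFBP4 and IGFBP5, was at 7.39 and 7.71 FPKM in the male naive lines, at 6.00 and 6.70 in the female naive lines and at 0.703 and 3.46 in the primed lines, and was named after its values were seen. All naive lines lay above both primed lines, as for its substrate gene IGFBP4, and the difference was 1.52 (SE 0.38, limma adjusted p = 0.0557). For its other substrate gene, IGFBP5, all naive lines lay below both primed lines. STC2, a secreted inhibitor of this protease, was called lower in naive lines (-0.87, SE 0.20, limma adjusted p = 0.0435). Its groups overlapped, at 7.87 and 8.62 FPKM in the male naive lines, at 1.60 and 2.01 in the female naive lines and at 7.23 and 9.45 in the primed lines. The lower level was that of the female lines, which differed from male naive lines by -1.72 (SE 0.23, limma adjusted p = 0.0186). STC1, a related gene of the list named after its values were seen, was not called (-1.29, SE 0.42, limma adjusted p = 0.0978). Its naive lines, at 1.72 to 3.57 FPKM, lay below the primed lines, at 4.03 and 13.2 FPKM. Within males STC1 differed by -1.54 (limma adjusted p = 0.117).

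**Figure D5:**
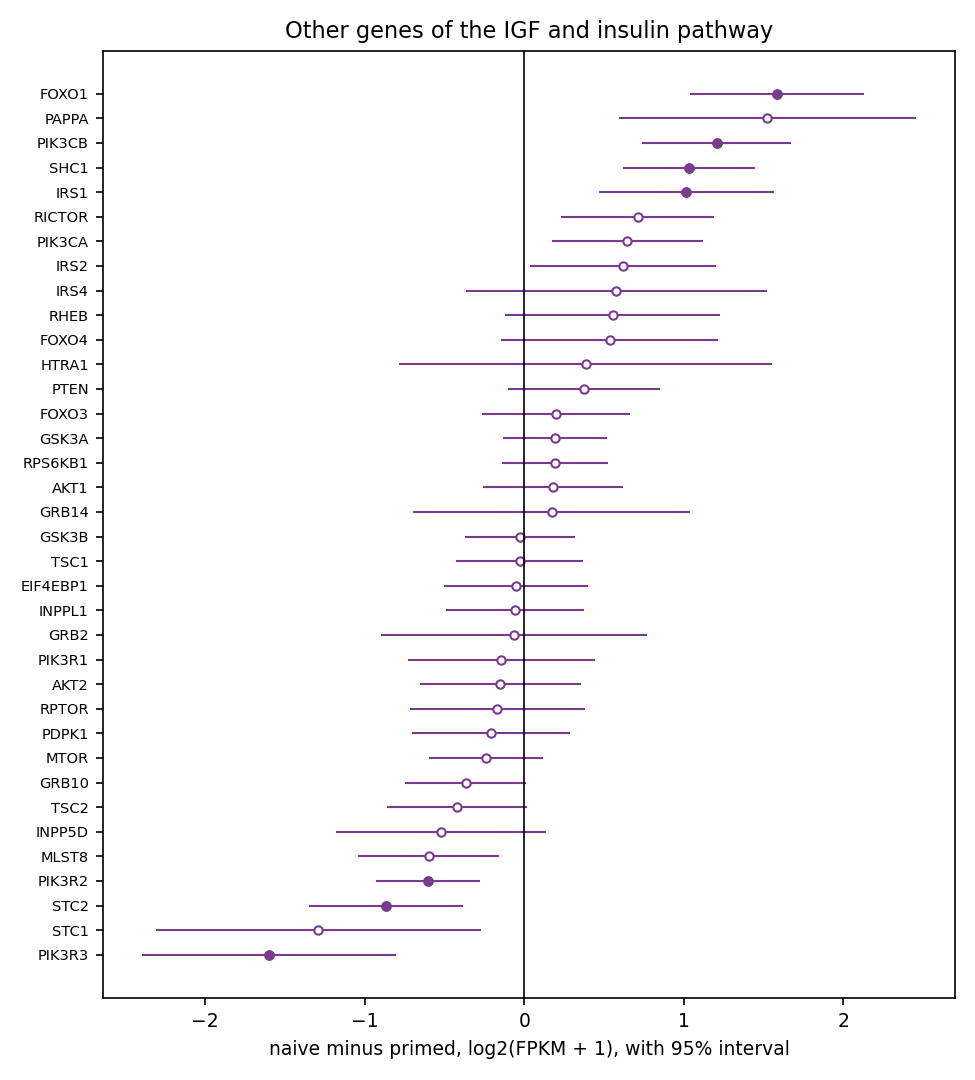
Difference between naive and primed lines on the log2(FPKM + 1) scale, with its 95% interval, for the 36 tested genes of the wider IGF and insulin list; filled points have an adjusted p under 0.05. The filled points are FOXO1, PIK3CB, SHC1 and IRS1 on the higher side and PIK3R3, STC2 and PIK3R2 on the lower side.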

How the data were processed

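FPKM values with lower and upper bounds, 1 table per library, were computed by the authors and deposited in the layout of Cufflinks gene tracking files, per the file headers. The aligner was TopHat 1.3.0 (submitters' processing notes). No genome build, annotation release or quantifier version was stated, and coordinates are those of the deposited loci, with 1 added to the start, since starts counted from 0 (end minus start was a multiple of 3 in 195 of 211 olfactory and taste receptor rows). Groups and replicate numbers came from titles and the gender label. Bounds were read as 2 SD from FPKM. Effective fragments, an estimate of the fragments behind a value, are the square of FPKM over that SD and cover counting and assignment error only.

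A row was tested (13685 rows) when it had an OK status everywhere and reached 1 FPKM in 2 or more libraries. One mean per group was modelled over all 6 libraries with limma 3.58.1 (R 4.3.3) on log2(FPKM + 1), with a trended prior and 3 residual degrees of freedom. The 3 comparisons were two-sided, with Benjamini-Hochberg adjustment over all tested rows. The fit was tested on simulated data. The offset of 1 shrinks differences of low genes. P-values measure the spread between these libraries, which the labels do not tie to animals and which may be partly technical. The members and lists were chosen with earlier results of these data known. All members are named, and of the wider list up to 10 called genes plus IGF1, INS, IGFBP1 and H19, the last without a row. One gene of that list is not reported here and was left out of its counts. Genes outside this rule were named after their values were seen. Alternatives changed the offset, filter, scaling, weights, sex term, replicate block, short rows and libraries.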

Additional observations from a re-analysis of the deposited data

How the results depend on the processing

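Of the 9 members, 2 were called in naive against primed lines. The count was 0 with an offset of 0.1, with no filter, with sex ignored and without both male naive libraries (an alternative chosen after seeing the data), 1 with upper-quartile scaling, median-of-ratios scaling or precision weights, and 0 to 3 on leaving out 1 library. Within males it was 0, and 0 to 2 on leaving out 1 library. Between naive lines it was 0, 1 with precision weights or a fit to the naive lines alone, and 0 to 1 on leaving out 1 library. The wider list had 7 calls, 3 with no filter or precision weights, 0 with sex ignored, 4 without both male naive libraries and 0 to 5 on leaving out 1 library.

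Over all tested rows limma called 1548 in naive against primed lines, 920 higher and 628 lower (693 and 878 with upper-quartile scaling, 741 and 739 with quantile normalization). The total was 941 with no filter, 920 with precision weights, 250 with sex ignored, 625 without both male naive libraries and 177 to 1081 on leaving out 1 library. Within males it was 738, 543 and 195 (391 and 357 with upper-quartile scaling, 399 and 294 with quantile normalization, 418 and 255 with median-of-ratios scaling), 400 with no filter, 348 with the compared groups alone, 464 without rows under 1500 bp and 51 to 626 on leaving out 1 library. Between naive lines it was 453, 104 and 349 (106 and 219 with upper-quartile scaling, 118 and 223 with quantile normalization, 114 and 219 with median-of-ratios scaling), 268 with no filter, 928 with precision weights, 183 without rows under 1500 bp and 41 to 523 on leaving out 1 library. Upper-quartile scaling moved the median difference of all rows from 0.09 to -0.06 within males and from -0.10 to 0.01 between naive lines.

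Signs changed for differences that were not called. IGF2R within males (0.0025) was at -0.16 with upper-quartile scaling, -0.18 with quantile normalization, -0.11 with median-of-ratios scaling and -0.19 to 0.20 on leaving out 1 library. Between naive lines, with the same 3 scalings in that order, IGFBP5 (-0.093) was at 0.025, 0.027 and 0.047 and IGFBP7 (-0.060) at 0.045, 0.082 and 0.063. On leaving out 1 library, the differences between naive lines ran from -0.49 to 0.036 for IGF1R, -0.20 to 0.57 for INSR, -0.51 to 0.32 for IGFBP5 and -0.95 to 0.83 for IGFBP7, and that of IGFBP2 in naive against primed lines ran from -0.996 to 0.055.

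With the replicate block the counts were 2 of 9 members in naive against primed lines, 3 for the wider list and 812, 373 and 207 over all rows in the 3 comparisons. Replicate numbers were not shown to pair the samples. Deviations from the group means of same-numbered libraries correlated at -0.0605, -0.0495 and -0.263 across genes. Whether libraries of different groups shared a preparation was not tested. The cause of these changes was not tested.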

Other observations

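Genes whose level followed that of a member over the 6 libraries were ranked by Pearson's r of log2(FPKM + 1), among 9566 rows with a symbol whose mean reached 5 FPKM in at least 1 group. The libraries share their groups and depths, so r is a description of these 6 values. For IGFBP3 the closest were PPT2 (0.995), SNCB (0.992) and ARHGAP8 (0.989), and 362 rows had r over 0.9. SNCB was at 4.30 and 4.32 FPKM in the male naive lines, at 20.5 and 25.8 in the female naive lines and at 1.23 and 4.78 in the primed lines, and so matched IGFBP3 in the low primed 1 and the high female lines. For IGFBP2 the closest were PLD3 (0.993), HAUS4 (0.973) and PLTP (0.97), with 34 rows over 0.9. For IGF1R they were ZFYVE21 (0.98), SMTN (0.971) and KIAA2013 (0.967), with 18 rows over 0.9.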
